A study of Oryza sativa with 25 samples.

Results

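The transcript levels of rice shoot were set against those of root, with 3 arrays for each organ among the 25 arrays of a series on rice callus and vegetative organs. Shoot was 4 weeks old and came from plants kept at 30 °C in a growth chamber. Root was the whole organ, taken while leaf 4 was growing, and came from a greenhouse. The labels call the arrays of an organ biological replicates and state that each labelling began with 500 ng of total RNA. All 6 arrays were Affymetrix Rice Genome Arrays, on which sets of short probes report the level of a transcript. Growth place, stage at collection and organ differed together between the groups, so an organ difference and a difference of growth conditions cannot be told apart. Young leaf, the blade of leaf 4, also grown in a greenhouse (4 arrays), entered no test between organs. Its levels are given beside some genes and lists as a description, and its arrays share the estimate of spread.

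A rice shoot at this age holds leaf blades and sheaths built around a shoot apical meristem, whose cells keep dividing and give rise to new leaves. Root has its own meristem behind the cap, and further back its outer cell layers take up water, nitrogen, phosphate, silicon and metals, with the Casparian strip of the exodermis and endodermis forcing solutes through cells. Many of the transporters named in this crop were found by their role in that path.

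Levels are intensities as deposited, scaled so that each array has its 75th percentile at 1, and the median probe set stood at 0.237 to 0.268 in shoot and 0.346 to 0.355 in root. Differences are log2 values, shoot minus root, from limma on quantile-normalized values and are followed by their standard error. This error rests on the spread within groups over all 25 arrays, callus included, and not on the 6 shoot and root arrays alone. Levels of different genes are not compared, since probe sets differ in brightness. A probe set or gene was called where its adjusted p lay under 0.05 and its fold reached 2. The word "higher" or "lower" in a count means called. Across probe sets, replicates correlated at 0.971 to 0.985 in shoot and 0.970 to 0.983 in root, and a shoot with a root array at 0.705 to 0.769. The ratio of signal from the 3' to the 5' probe sets of control transcripts, a sign of RNA integrity, was higher in every shoot array than in every root array for 3 of the 4 controls. It was 6.92 to 11.1 in shoot and 3.75 to 4.55 in root for Gapdh, 1.67 to 2.23 in shoot and 1.31 to 1.65 in root for Cyph, and 0.702 to 0.863 in shoot and 0.624 to 0.688 in root for ubiquitin. Actin went the other way, with 3.52 to 5.90 in shoot and 6.47 to 7.66 in root. The part of RNA integrity in the results was not tested.

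Of 37218 probe sets tested, 5751 (15.5%) were higher and 5022 (13.5%) were lower in shoot. Taken as 1 probe set for each of 16836 genes, 3483 genes (20.7%) were higher and 2717 (16.1%) were lower. Among the 2349 genes that carry a name the counts were 575 (24.5%) and 447 (19.0%). The lists and families below hold only named genes, so 24.5% and 19.0% are the closer shares to set beside their counts. The balance of the calls depended on how arrays were brought to one scale: 53.4% of the called probe sets were higher in shoot after quantile normalization, 41.8% without it (4444 higher, 6194 lower) and 69.3% when each array was divided by its median (8312 higher, 3686 lower). Against quantile normalization those 2 scalings moved the median log2 difference of all tested probe sets by -0.29 and 0.18. The largest differences leaned to root: 166 genes were at least 16-fold higher in shoot, and 311 were at least 16-fold lower. Shoot and root arrays did not overlap for 69.0% of all genes tested and for 98.8% of those called. In 1334 of the probe sets called higher, and in 1954 of those called lower, the organ with less had a mean under 0.264. This cut is the median of the 25 array medians. Under it a level is near the low end of the scale, and the size of the fold depends on the constant added before the log. The cut lies within the range of the shoot array medians (0.237 to 0.268) but under every root array median (0.346 to 0.355). It is therefore stricter for root than for shoot, and the counts of the directions cannot be compared.

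The 10 largest differences in each direction are given next, picked among called named genes whose shoot and root arrays did not overlap. CAB2R (LOC4324599, chromosome 1), a chlorophyll-binding antenna protein, stood at 89.5, 88.3 and 80.1 in shoot, against 0.231, 0.242 and 0.223 in root. The gene listed as ADPase (LOC4351367, chromosome 12), an apyrase, stood at 79.2, 85.2 and 67.7 in shoot, against 0.296, 0.364 and 0.399 in root. CAB2R lay under the array median in every root array and ADPase near it, with log2 differences of 8.82 ± 0.23 and 8.13 ± 0.16 (limma's adjusted p = 1.73e-18 and 2.37e-20). The other 8 of the 10 largest were LTP2-B, a lipid transfer protein (7.58), BURP17, a BURP-domain protein (7.54), PETE, plastocyanin (6.98), ADI1, which carries a ferredoxin synonym (6.11), ALDP, a plastid aldolase (6.01), LHCP, a further antenna protein (5.82), CHLP, which makes the phytol tail of chlorophyll (5.66), and the meristem gene OSH1 (5.60).

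At the other end, MT4C (LOC4352582, chromosome 12), a metallothionein, stood at 0.182, 0.234 and 0.186 in shoot, against 107, 114 and 73.9 in root. PPDK2 (LOC4333181, chromosome 3), a pyruvate phosphate dikinase, stood at 0.304, 0.353 and 0.203 in shoot, against 101, 86.7 and 133 in root. These are differences of -8.62 ± 0.46 and -8.34 ± 0.22 (limma's adjusted p = 3.02e-13 and 2.57e-18), with MT4C under the array median in every shoot array and PPDK2 near it. MT1B (-8.30), the lignin gene CCR1 (-8.16), the copper transporter gene COPT2 (-7.73), Adh2, an alcohol dehydrogenase (-7.32), cap2 (-6.69), the cold-responsive factor gene DREB1B (-6.63), the calmodulin-like gene CML31 (-6.40) and the silicon exporter gene Lsi2 (-6.34) made up the other 8. Members of the metallothionein and antenna families are close in sequence, and probe sets for them may detect a relative.

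**Figure D1:**
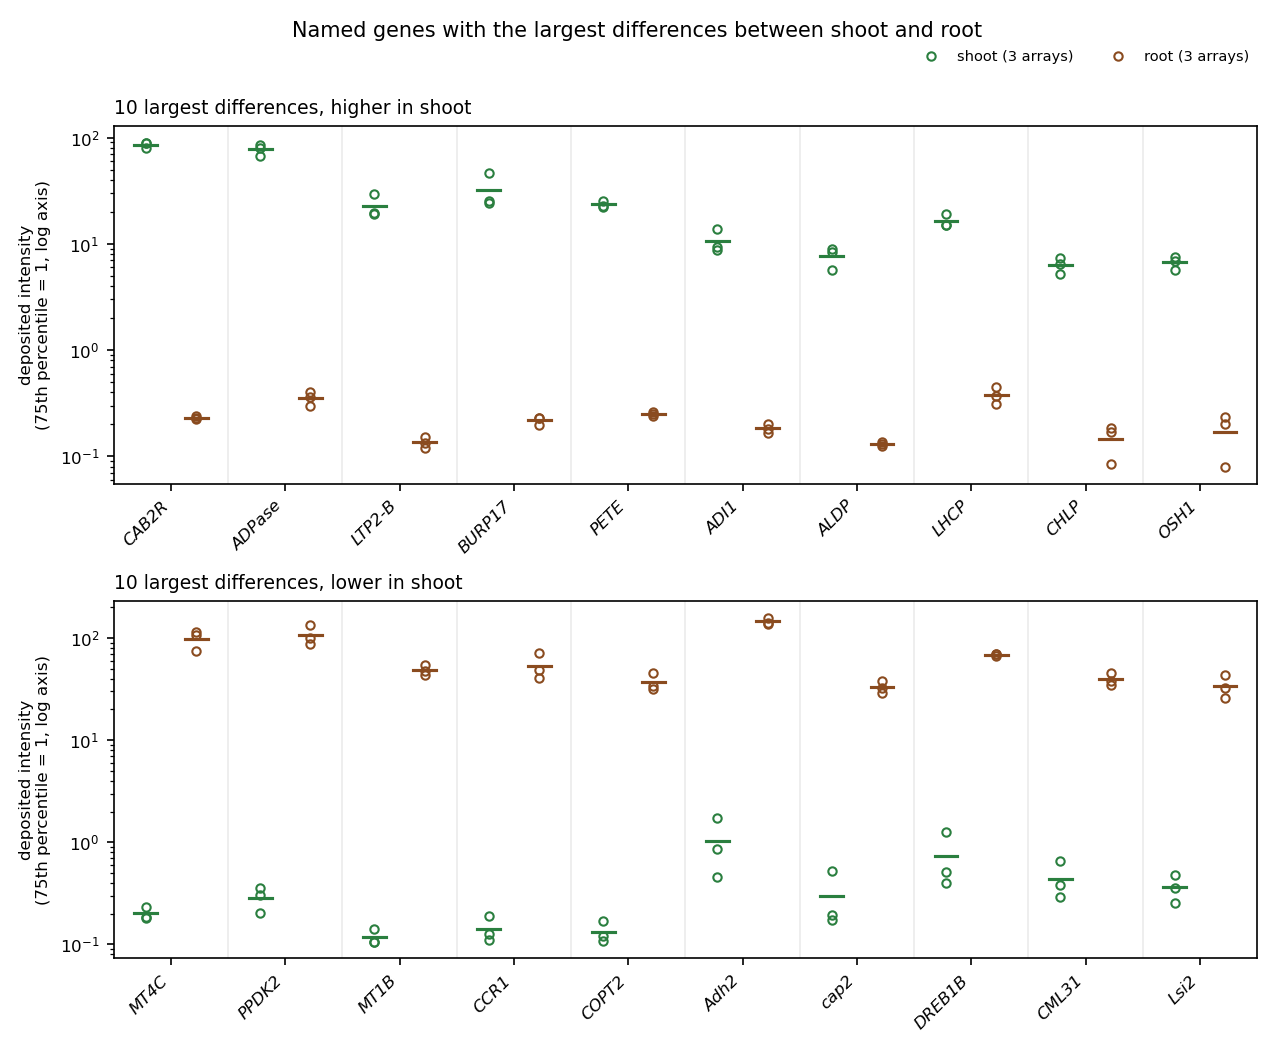
Deposited intensity (75th percentile of each array = 1, log axis) in the 3 shoot arrays and the 3 root arrays for the 10 named genes with the largest difference in each direction; circles are arrays and bars are means. The genes were picked among those without overlap, so the gap between the organs in all 20 follows from the rule. CAB2R lies at 80.1 to 89.5 in shoot and 0.223 to 0.242 in root. Lsi2 lies at 0.255 to 0.481 in shoot and 25.7 to 43.2 in root.

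Organ markers went with the labels for the most part. Of 7 markers of green tissue, 6 were higher in shoot and CHLI, a magnesium chelatase subunit, was not called (0.53). The summed level of the 7 was 114 to 118 in shoot and 2.06 to 2.13 in root. In shoot this sum rested mainly on CAB2R, with a mean of 86.0, and PETE, with a mean of 23.5. All 4 markers of the shoot apex were higher in shoot, with sums of 15.2 to 21.0 in shoot and 2.21 to 2.60 in root. Of 9 root markers, 5 were lower in shoot, namely Lsi1, Lsi2, OsPht1;8, OsCASP1 and the manganese transporter gene NRAMP5, and the quiescent centre gene OsWOX9, the crown root gene OsWOX11 and the potassium transporter gene HAK5 were not called. NAAT1, an enzyme of phytosiderophore synthesis listed as a root marker, was higher in shoot, with 1.71, 1.21 and 1.29 in shoot, against 0.574, 0.34 and 0.631 in root (1.68 ± 0.26). The root marker sum was 59.5 to 107 in shoot and 247 to 285 in root. In shoot this sum rested mainly on HAK5, at 50.6, 91.6 and 53.6 in shoot, against 49.9, 58.4 and 73.6 in root. In root it rested mainly on Lsi1, at 149, 146 and 150.3. No marker was at 0 in any array. MADS1, a floral gene, and EM, a seed gene, stood at 0.647 or less in all 6 arrays, and neither was called. In whole organs, a lower level may come from fewer cells of a type or from less RNA in each, and these cannot be told apart here.

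**Figure D2:**
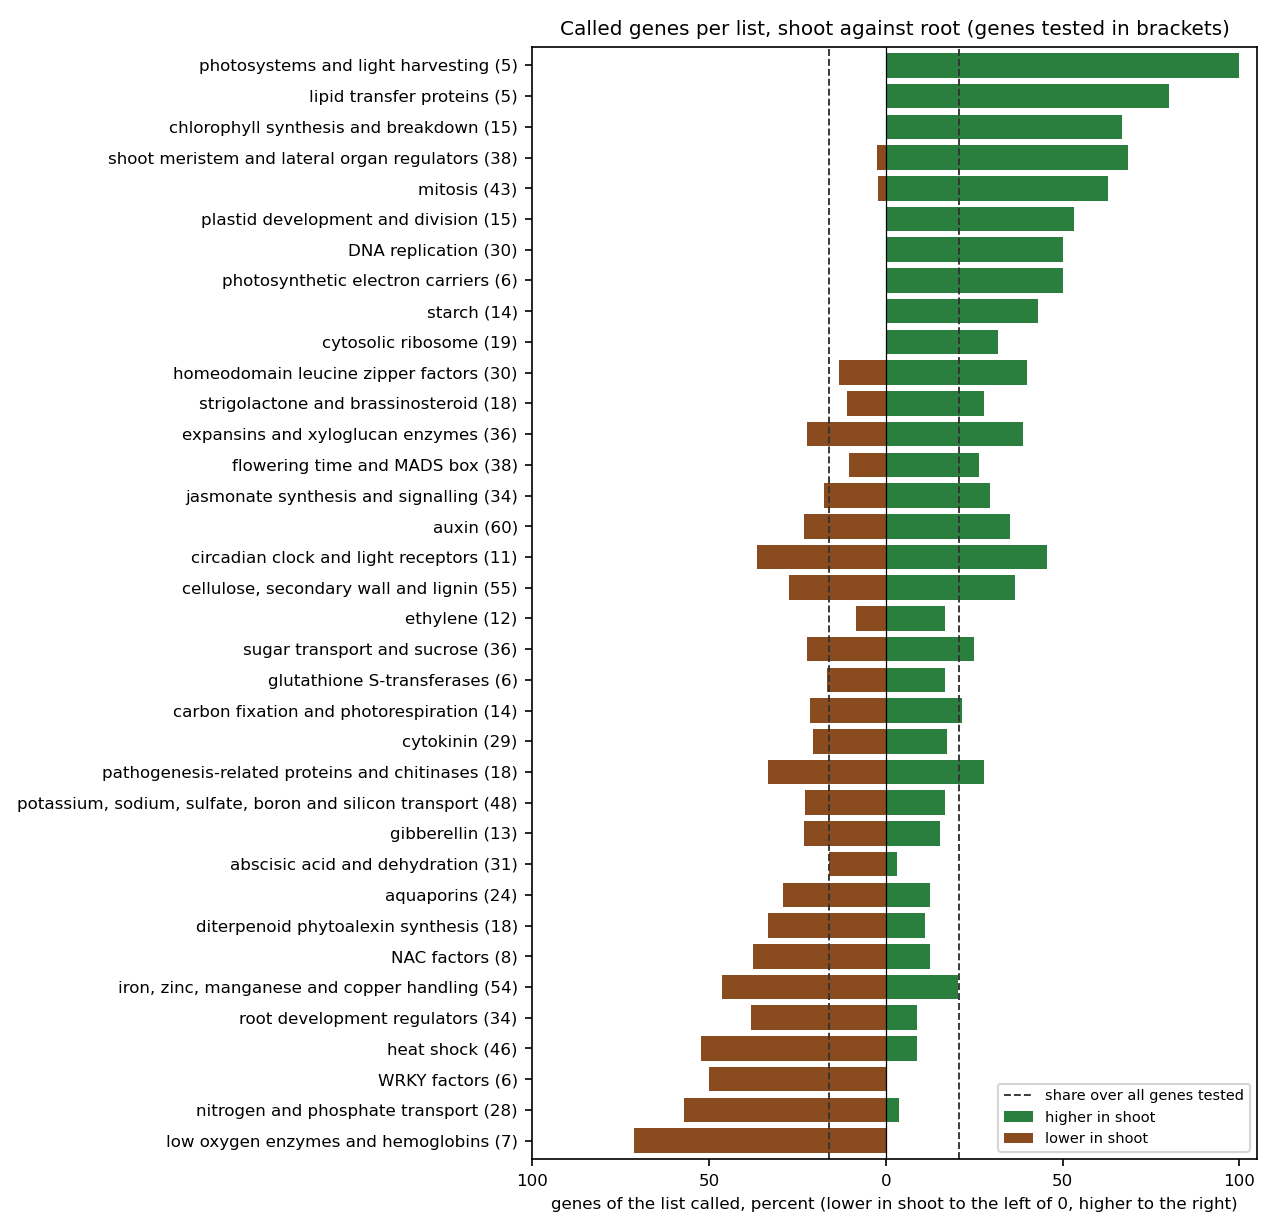
Percent of the tested genes of each list called lower (left of 0) and higher (right of 0) in shoot than in root, with the number of genes tested in brackets; dashed lines mark the shares over all genes, 16.1% and 20.7%. The lists hold only named genes, of which 19.0% were lower and 24.5% higher. Photosystem, electron carrier, chlorophyll, meristem and cell division lists lie on the right, and low oxygen, nitrogen and phosphate, and heat shock lists on the left.

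All 5 tested genes of the photosystems and their antennae were higher, with a median log2 difference of 5.49 against 0.19 over all genes. PSAH, a subunit of photosystem I, stood at 3.92, 3.43 and 3.48 in shoot, against 0.524, 0.704 and 0.441 in root. Plastocyanin, PETE, which carries electrons to photosystem I, stood at 22.7, 22.4 and 25.5 in shoot, against 0.241, 0.259 and 0.248 in root (6.98 ± 0.26). In both genes every shoot array was above every root array. Of 6 electron carriers, 3 were higher: PETE, petC (2.12), the Rieske protein, and LFNR1 (1.77), the leaf ferredoxin reductase, while the 2 further FNR genes were not called, one of them at 2.49, 2.66 and 2.83 in shoot, against 1.28, 1.49 and 1.21 in root.

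The list of carbon fixation and photorespiration had 3 genes higher and 3 lower of 14 (median 0.22). Each share was 21.4%, against 20.7% higher and 16.1% lower over all genes, and 24.5% and 19.0% over named genes. With the probe set of largest variance for each gene, 5 were higher. ALDP, the plastid aldolase named above (6.01), was not on this list. OsrbcS (LOC4351966), the small subunit of Rubisco, stood at only 1.35, 1.33 and 1.76 in shoot, against 0.399, 0.481 and 0.464 in root (1.97 ± 0.22, limma's adjusted p = 4.97e-08), and in young leaf at 88 ± 16.9 (SD, n = 4). Shoot was thus above root in every array, but both were far under young leaf. OsrcaA1, Rubisco activase, showed the same order at 0.964, 1.92 and 1.81 in shoot, against 0.285, 0.338 and 0.339 in root (2.52 ± 0.30), with 15.6 ± 2.91 in young leaf. GDCSH, a glycine decarboxylase subunit of photorespiration, was the third gene that was higher (3.13). The 3 that were lower all turn over 4-carbon acids or pyruvate: PPDK2, its relative OsPPDKB (-3.75) and the malic enzyme ME6 (-1.68). OsPPDKB stood at 1.61, 4.03 and 2.0 in shoot, against 31, 27 and 44.8 in root, and ME6 at 12.1, 16 and 12.7 in shoot, against 45.1, 39.99 and 62 in root, with both organs well above their array medians. Glycolate oxidase genes were not called, among them GLO3 at 16, 15.5 and 18.6 in shoot, against 17.7, 18.3 and 13.3 in root, where the arrays overlapped.

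Genes of chlorophyll synthesis and breakdown were higher in 10 of 15 cases and lower in 0 (median 1.53). CHLP stood at 6.53, 5.2 and 7.3 in shoot, against 0.17, 0.186 and 0.0855 in root (5.66 ± 0.19, limma's adjusted p = 1.02e-16), and CHLH, the large subunit of magnesium chelatase, at 2.52, 1.69 and 2.11 in shoot, against 0.134, 0.136 and 0.114 in root (4.13 ± 0.31). The protochlorophyllide reductase genes PORA and PORB differed by 3.54 ± 0.24 and 3.01 ± 0.20, and SGR, a chlorophyll breakdown gene, by 2.08 ± 0.33. CAO, which makes chlorophyll b and was also higher, stood at 1.25, 0.999 and 1.52 in shoot, against 0.166, 0.222 and 0.149 in root. HEMB, an early step shared with haem, stood at 2.54, 2.61 and 3.16 in shoot, against 2.68, 2.53 and 2.25 in root, and its arrays overlapped. Plastid development genes were higher in 8 of 15 and lower in 0 (median 1.17). GLK2, a transcription factor that drives chloroplast build-up, stood at 2.62, 2.49 and 2.66 in shoot, against 0.234, 0.169 and 0.166 in root (4.03 ± 0.19). Its relative GLK1 stood at 0.907, 0.815 and 0.855 in shoot, against 0.419, 0.334 and 0.346 in root (1.53 ± 0.22). Among FTSH proteases, FTSH2, which clears damaged photosystem II protein, was higher (1.82) and FTSH5 was not called (-0.50). In young leaf the mean level was above both organs in 5 of 5 photosystem genes, 11 of 15 chlorophyll genes and 14 of 15 plastid genes, against 32.9% of all genes tested.

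Regulators of the shoot meristem and of lateral organs were higher in 26 of 38 genes and lower in 1 (median 1.67), or lower in 2 without shoot replicate 2. KNOX factors keep meristem cells undetermined, YABBY factors lay out leaf blades and midribs, and GRF and TCP factors set how long leaf cells divide. OSH1 (LOC4333973, chromosome 3), the founding rice KNOX gene, stood at 7.5, 6.96 and 5.62 in shoot, against 0.20, 0.232 and 0.0789 in root (5.60 ± 0.32, limma's adjusted p = 1.07e-12), and at 0.127 ± 0.0379 in young leaf. Shoot alone of the 3 organs carried it above the median of its arrays. Of 9 KNOX genes 5 were higher, among them OSH71 at 6.78, 6.6 and 4.45 in shoot, against 1.84, 1.75 and 1.5 in root (1.80 ± 0.25) and OSH6 (2.32). The gene that was lower was OSH45, a class II KNOX gene, at 2.53, 2.19 and 1.59 in shoot, against 9.998, 7.64 and 8.3 in root (-1.98 ± 0.28), with root above shoot in every array. Others of class II went differently: HOS58 and HOS59 were not called (-0.77 and -0.74), and HOS66 was higher (1.14).

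All 6 YABBY genes tested were higher in shoot, with a median of 4.04. OsYAB2 stood at 5.9, 5.16 and 6.71 in shoot, against 0.136, 0.197 and 0.12 in root (5.52 ± 0.20, limma's adjusted p = 5.04e-16), and OsYAB1 at 5.58, 4.36 and 5.29 in shoot, against 0.184, 0.168 and 0.178 in root (5.11 ± 0.19). DL, which forms the leaf midrib, stood at 1.18, 0.74 and 1.13 in shoot, against 0.255, 0.32 and 0.318 in root (2.04 ± 0.19). No YABBY gene had overlapping arrays. GRF genes were higher in 8 of 10, from GRF4 at 3.02, 3.03 and 2.82 in shoot, against 0.369, 0.399 and 0.446 in root (3.19 ± 0.34) to GRF1 (1.04), and GRF6 and GRF11 were not called (0.85 and 0.69). PCF genes of the TCP family were higher in 5 of 7, led by PCF7 (4.28). NAL1, a protease that sets leaf width, stood at 6.92, 7.4 and 6.68 in shoot, against 1.14, 1.29 and 1.24 in root (2.56 ± 0.14), again without overlap.

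Homeodomain leucine zipper factors were higher in 12 (40.0%) and lower in 4 (13.3%) of 30 (median 0.43), against 24.5% and 19.0% of named genes. Of the 5 class III genes, which pattern the upper leaf face and the vasculature, HOX9, HOX10, HOX32 and HOX33 were higher (2.86, 2.45, 2.01 and 2.39), and HOX29 was lower. HOX10 stood at 7.53, 8.34 and 8.76 in shoot, against 1.41, 1.36 and 1.85 in root, while HOX29 stood at 0.29, 0.242 and 0.304 in shoot, against 1.35, 1.18 and 1.39 in root (-2.09 ± 0.22). HOX10 thus lay above the array median in root too, and neither gene had overlapping arrays. ROC genes of class IV, which mark the epidermis, were higher in 5 of 7, among them Roc2 at 3.71, 3.62 and 4.84 in shoot, against 0.216, 0.218 and 0.185 in root (4.58 ± 0.19) and ROC1 (4.16). HOX5 and HOX8 were lower (-1.95 and -1.88). HOX5 stood at 3.77, 4.46 and 3.87 in shoot, against 17.6, 13 and 21.9 in root.

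**Figure D3:**
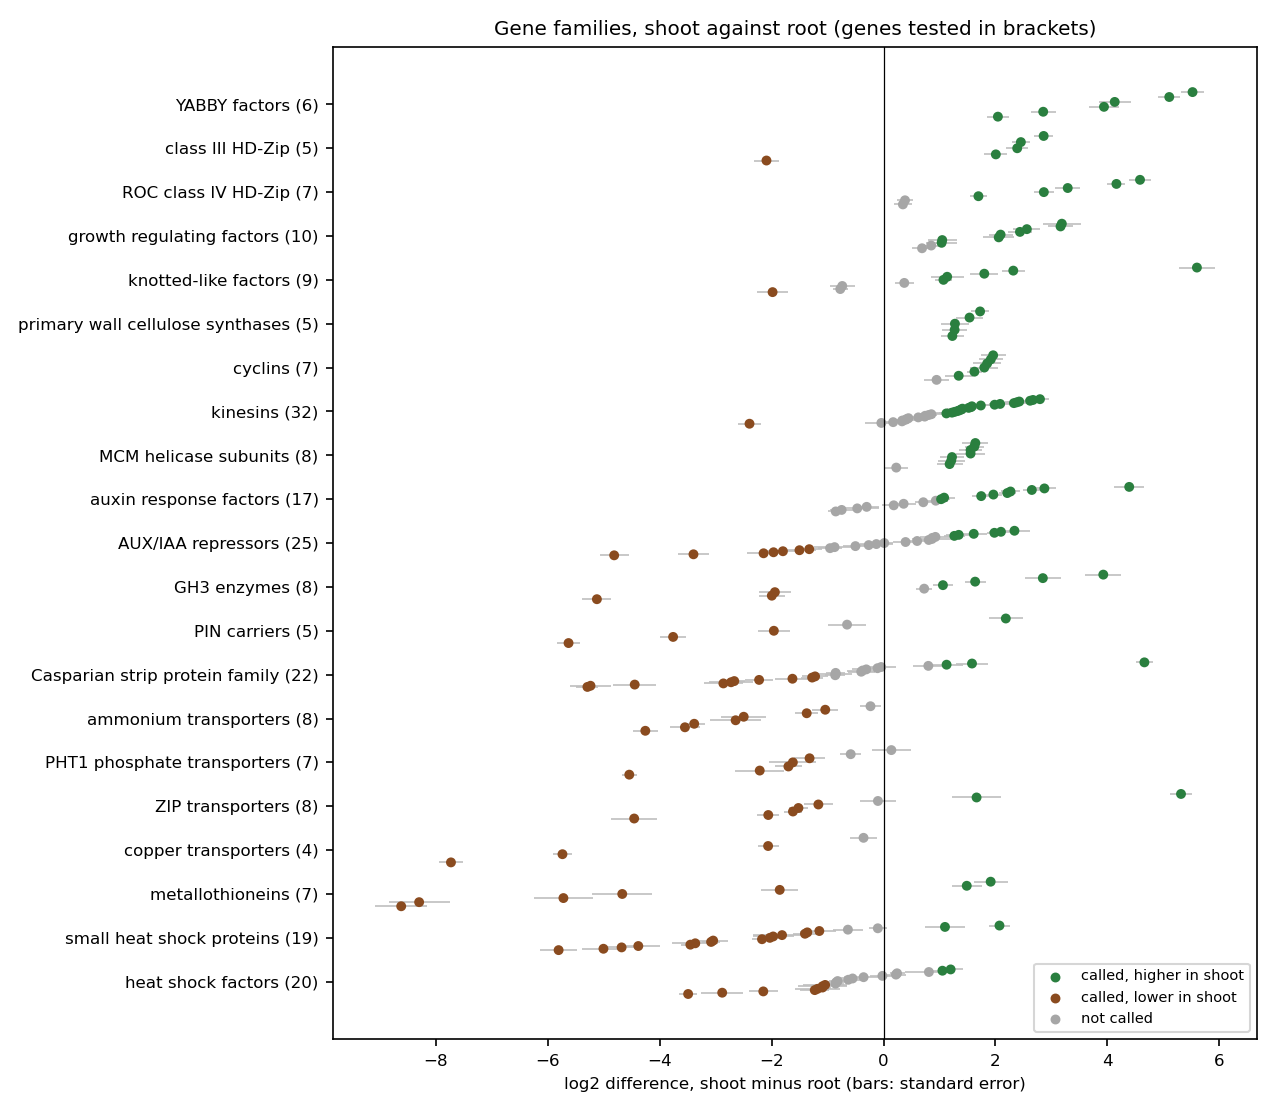
Log2 difference, shoot minus root, of each tested gene of 21 families (number of genes in brackets), with its standard error; colours mark genes called higher, called lower and not called. YABBY genes and primary wall cellulose synthases lie wholly on the right, while ammonium transporters and metallothioneins reach to the left, metallothioneins with 2 genes higher and 5 lower.

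Genes listed for cell division leaned to shoot. Mitosis genes were higher in 27 of 43 and lower in 1 (median 1.36), and replication genes in 15 of 30 with 0 lower (median 0.95). Kinesins made up 32 of the 43 mitosis genes, and the part each plays in mitosis was not tested. CYCB1-1, a mitotic cyclin, stood at 7.92, 6.69 and 7.79 in shoot, against 3.05, 2.56 and 1.18 in root (1.85 ± 0.25, limma's adjusted p = 1.10e-06), and at 0.119 ± 0.0205 in young leaf. CDKB2-1, the kinase of the same step, stood at 10.5, 7.59 and 8.75 in shoot, against 2.58, 2.62 and 1.44 in root (2.07 ± 0.21). Root replicate 3 was the lowest root array for both genes. Of 7 A-type and B-type cyclins 6 were higher, and CDKA-1, the kinase used throughout the cycle, was not called (0.97). The kinesins, a family that holds motors of spindle and phragmoplast, were higher in 19 of the 32 on the list. They were led by KIN14C (2.80), KIN14I (2.67) and KIN8B (2.62). KIN14M alone was lower, at 0.173, 0.206 and 0.156 in shoot, against 1.2, 0.819 and 1.47 in root (-2.40 ± 0.21). In replication, 7 of 8 MCM helicase genes were higher, such as MCM3 at 3.86, 3.18 and 4.05 in shoot, against 1.5, 1.43 and 0.826 in root (1.64 ± 0.23). OsPCNA, the sliding clamp, stood at 6.3, 4.37 and 5.93 in shoot, against 6.05, 6.56 and 3.92 in root and overlapped (0.12). In young leaf, the mean level was below both organs for 36 of 43 mitosis genes and 21 of 30 replication genes, against 38.7% of all genes tested.

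Ribosomal protein genes were higher in 6 of 19 (31.6%), against 24.5% of named genes, and lower in 0 (median 0.93). The count higher was 3 without quantile normalization, 16 with division by medians, 14 without root replicate 2 and 9 without shoot replicate 2. RPS15 stood at 34.7, 23.9 and 30.1 in shoot, against 14.9, 17.7 and 10.3 in root (1.34 ± 0.16). RPS21 stood at 113, 110.2 and 103 in shoot, against 65.2, 77.1 and 40.8 in root and was not called (0.88). RPL27 and RPL18, the list's largest differences (1.87 and 1.62), carry synonyms of chloroplast ribosomal proteins.

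Wall genes went in both directions. The 5 cellulose synthases of the primary wall were all higher: CESA1 (1.73), CESA5 (1.54), CESA6 (1.28), CESA8 (1.27) and CESA3 (1.23). CESA1 stood at 37.1, 36.9 and 32.9 in shoot, against 14, 11.9 and 12.4 in root, high in both organs and without overlap. The 3 synthases of the secondary wall were not called, and 1 was lower without shoot replicate 1 or 2, or root replicate 2 or 3. Of 6 laccases, which polymerize lignin, 4 were lower, among them LAC3 at 0.767, 0.537 and 0.408 in shoot, against 4.88, 3.72 and 3.9 in root (-2.85 ± 0.32, limma's adjusted p = 6.99e-08). CCR1, an enzyme of monolignol synthesis, stood at 0.11, 0.188 and 0.127 in shoot, against 48.7, 40.3 and 71.9 in root (-8.16 ± 0.22). CAD7 was lower (-5.06) and CAD3 higher (4.11), and both are listed as cinnamyl alcohol dehydrogenases, the last step to monolignols. In all, the list of 55 had 20 higher (36.4%) and 15 lower (27.3%), against 24.5% and 19.0% of named genes (median -0.16). PAL, the entry enzyme, was not called on its brightest probe set, at 43.7, 56.6 and 34.1 in shoot, against 122, 98.4 and 104 in root, while 3 of its 5 probe sets were lower and 1 was higher.

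Expansins, which loosen walls, likewise divided by member. EXP6 stood at 6.8, 5.73 and 6.68 in shoot, against 0.398, 0.405 and 0.256 in root (4.55 ± 0.22, limma's adjusted p = 4.12e-14), and EXP7 at 19.8, 11.5 and 12.9 in shoot, against 1.78, 1.93 and 1.0 in root (3.29 ± 0.22). By contrast EXP3 stood at 0.122, 0.173 and 0.142 in shoot, against 4.97, 4.71 and 3.99 in root (-4.64 ± 0.31), and EXPB2 at 0.257, 0.59 and 0.407 in shoot, against 9.6, 8.92 and 5.98 in root (-4.15 ± 0.49). Each of the 4 genes was clear of overlap, 2 in each direction. Among alpha expansins 5 of 11 were higher and 2 lower, among beta expansins 3 of 10 higher and 2 lower, and among endoglucanases 4 of 10 higher and 3 lower, led by GLU13 (3.69) and GLU14 (-3.37). Of the 36 genes of this list, 14 were higher (38.9%) and 8 lower (22.2%), against 24.5% and 19.0% of named genes. In young leaf 29 of these 36 had a mean below both organs, against 38.7% of all genes.

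Genes of silicon uptake showed some of the largest differences towards root. Lsi1 (LOC4330713, chromosome 2), the channel that lets silicic acid into root cells, stood at 0.993, 7.1 and 1.95 in shoot, against 149, 146 and 150.3 in root (-5.90 ± 0.43, limma's adjusted p = 4.99e-11). Lsi2 (chromosome 3), which exports silicic acid towards the stele, stood at 0.255, 0.481 and 0.359 in shoot, against 32.7, 25.7 and 43.2 in root (-6.34 ± 0.24). Both were far above shoot in every root array. Lsi6, the related channel that unloads silicon in leaves, stood at 4.93, 12.5 and 8.54 in shoot, against 6.65, 5.75 and 3.98 in root, and its arrays overlapped. Shoot replicate 2 was the highest shoot array for Lsi1 and Lsi2. It was the highest of the 3 in 193 of the 311 genes that were at least 16-fold lower in shoot (62.1%), against 32.8% of all genes. The cause was not tested. Without this array 350 genes were at least 16-fold lower, and Lsi1 differed by -6.70.

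Of 34 genes on the root development list, 13 were lower (38.2%) and 3 higher (8.82%), against 19.0% and 24.5% of named genes (median -0.72). Of these 34, 22 were proteins of the Casparian strip family. That family held 10 of the 13 lower and all 3 higher, so the counts of the list rest mainly on it. OsCASP1, which builds the strip of the endodermis, stood at 0.255, 0.289 and 0.221 in shoot, against 2.24, 1.45 and 1.8 in root (-2.67 ± 0.20, limma's adjusted p = 7.22e-11). OsCASPL1C1 and OsCASPL1U3 were lower by more (-5.29 ± 0.20 and -5.24 ± 0.38). The opposite case was OsCASPL2A1, at 12.8, 11.7 and 10.4 in shoot, against 0.531, 0.598 and 0.537 in root (4.66 ± 0.16), with shoot above root in all arrays. RCN1, a transporter of suberin precursors, stood at 0.602, 0.559 and 0.322 in shoot, against 3.99, 2.28 and 2.91 in root (-2.59 ± 0.22), and CSLD1, which root hairs need, at 0.175, 0.178 and 0.158 in shoot, against 0.556, 0.577 and 0.64 in root (-1.34 ± 0.16).

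Genes listed for nitrogen and phosphate transport were lower in 16 of 28 and higher in 1 (median -1.35). Beside carriers, this list holds SPX genes of the phosphate starvation response. OsAMT1;1 (LOC4336365), an ammonium transporter, stood at 0.733, 1.81 and 0.995 in shoot, against 25.6, 21.8 and 19.9 in root (-4.26 ± 0.23, limma's adjusted p = 3.01e-13), and 7 of the 8 ammonium transporters were lower. NRT2.3, a nitrate transporter, stood at 0.278, 0.463 and 0.272 in shoot, against 2.65, 4.43 and 2.49 in root (-3.09 ± 0.28). OsPht1;2, a phosphate transporter, stood at 0.162, 0.224 and 0.144 in shoot, against 4.88, 5.14 and 5.02 in root (-4.54 ± 0.13). No array of one organ reached the other in these 3 genes. Of 7 PHT1 phosphate transporters 5 were lower, and in OsPht1;8 (-2.21) and OsPht1;1 (-1.32) young leaf stood above root, at 16.9 and 16.1. OsSPX3, a gene of the phosphate starvation response, was the one higher, and stood at 1.2, 0.306 and 0.404 in shoot, against 0.238, 0.303 and 0.207 in root, and without shoot replicate 1 it was not called (0.89, limma's adjusted p = 0.117). OsSPX1 and OsSPX2 were not called (-0.09 and -0.21).

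Of 54 genes for iron, zinc, manganese and copper, 25 were lower and 11 higher (median -0.87). COPT1, a copper transporter, stood at 0.756, 0.778 and 0.624 in shoot, against 45.8, 42 and 33 in root (-5.74 ± 0.17, limma's adjusted p = 1.54e-17), and COPT2 at 0.107, 0.17 and 0.12 in shoot, against 45.4, 31.4 and 33.7 in root (-7.73 ± 0.22). IRT1, the ferrous iron transporter, stood at 0.081, 0.119 and 0.0821 in shoot, against 0.691, 1.43 and 0.445 in root (-2.50 ± 0.44), and tom1, which secretes the iron chelator deoxymugineic acid, at 13.2, 18.8 and 14 in shoot, against 31, 33.8 and 37.2 in root (-1.01 ± 0.14). The marker NRAMP5 was close to the limit, at 4.19, 2.05 and 3.28 in shoot, against 6.23, 6.13 and 7.31 in root (-1.02 ± 0.24), and was lost without shoot replicate 2 (-0.71) or root replicate 3 (-0.95). Among zinc carriers, OsZIP3 stood at 4.92, 5.96 and 7.15 in shoot, against 0.174, 0.177 and 0.192 in root (5.32 ± 0.19), and HMA2, a zinc and cadmium pump, at 4.5, 6.37 and 3.49 in shoot, against 0.274, 0.278 and 0.388 in root (4.25 ± 0.27). In young leaf they stood at 0.185 and 0.169. Of all 8 ZIP genes 5 were lower and 2 higher, and OsZIP1 differed by -4.46 ± 0.41.

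Metallothioneins, small proteins that bind metals through cysteine, held 5 lower and 2 higher of 7. MT1A stood at 1.25, 6.5 and 1.83 in shoot, against 151, 138 and 119.6 in root (-5.72 ± 0.52, and -6.43 without shoot replicate 2), and MT4A at 0.189, 0.40 and 0.289 in shoot, against 9.73, 12.8 and 5.09 in root (-4.67 ± 0.53). MT2B and MT2C, in contrast, stood at 163, 271 and 141 in shoot, against 56.4, 47.7 and 34.6 in root (1.91 ± 0.30) and at 253, 312 and 194 in shoot, against 94.2, 66.5 and 75 in root (1.49 ± 0.27), all shoot arrays lying above all root arrays. The genes of types 1 and 4 were thus lower, and type 2 was split, since MT2A was lower (-1.86 ± 0.33).

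Transport of potassium, sodium, sulfate, boron and silicon did not lean to one organ. Of 48 genes, 8 were higher (16.7%) and 11 lower (22.9%), against 20.7% and 16.1% of all genes (median -0.12). Of named genes 24.5% were higher and 19.0% lower. The lead turned to 13 higher and 10 lower when arrays were divided by their medians. HAK1, a potassium transporter induced by potassium shortage, stood at 2.37, 1.04 and 1.35 in shoot, against 28.3, 21.6 and 33.9 in root (-4.12 ± 0.30, limma's adjusted p = 7.36e-11), and AKT1, the inward channel, at 0.712, 1.3 and 0.837 in shoot, against 3.16, 2.91 and 3.46 in root (-1.82 ± 0.25). HAK9 went the other way (1.81 ± 0.20). HKT1.5, which withdraws sodium from the xylem, stood at 0.503, 2.41 and 0.716 in shoot, against 0.271, 0.287 and 0.32 in root (2.03 ± 0.32), with shoot replicate 2 far above the other shoot arrays, and 1.37 without it. Some genes of aluminium tolerance in this list, picked after their values were seen, were lower: ART1, a regulator (-2.79), STAR2 (-3.95), Nrat1 (-4.51) and ALS1 (-2.35). Nrat1, an aluminium transporter, stood at 0.155, 0.154 and 0.118 in shoot, against 4.12, 5.01 and 3.2 in root.

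Aquaporins were lower in 7 of 24 (29.2%) and higher in 3 (12.5%), against 19.0% and 24.5% of named genes (median 0.03). Without shoot replicate 1, 5 were higher. OsPIP2;2 stood at 1.14, 0.80 and 0.705 in shoot, against 35.1, 30.8 and 33.5 in root (-5.19 ± 0.57, limma's adjusted p = 5.21e-08), and OsTIP2;1 at 0.681, 0.83 and 0.459 in shoot, against 57, 57.9 and 45.6 in root (-6.31 ± 0.80). NIP1-1 was higher (3.22), and OsPIP2;6 was higher by 1.07 ± 0.26, a call lost without quantile normalization (0.79), without shoot replicate 3 (0.94) and without root replicate 3 (0.96). OsTIP1;1 and OsPIP2;1, both abundant, were not called and overlapped, with OsTIP1;1 at 103, 81.3 and 90.7 in shoot, against 121, 106 and 84.1 in root.

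**Figure D4:**
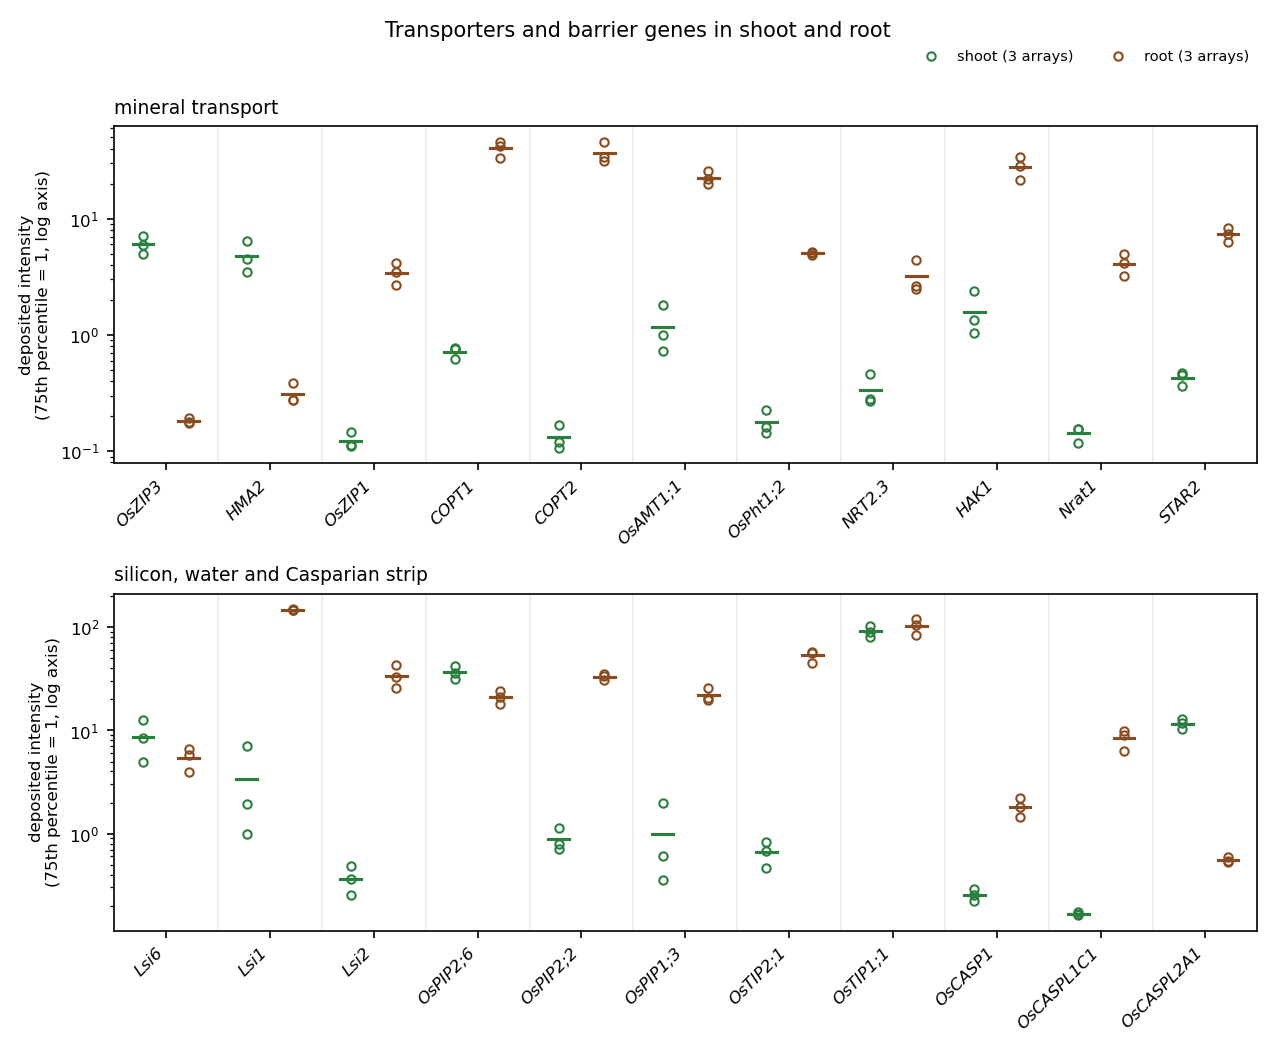
Deposited intensity (75th percentile of each array = 1, log axis) in the 3 shoot and 3 root arrays for 11 genes of mineral transport and 11 genes of silicon, water and barrier function; circles are arrays and bars are means. OsZIP3, HMA2, OsPIP2;6 and OsCASPL2A1 are higher in shoot, Lsi6 and OsTIP1;1 overlap, and the others are lower in shoot.

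Fermentation and low oxygen genes were lower in 5 of 7 and higher in 0 (median -2.90). Rice roots draw on pyruvate decarboxylase and alcohol dehydrogenase when oxygen is short. PDC1 stood at 2.74, 1.68 and 1.87 in shoot, against 131, 123 and 161 in root (-6.03 ± 0.22, limma's adjusted p = 5.04e-16), and Adh2 at 0.453, 1.75 and 0.862 in shoot, against 138, 140.5 and 159 in root (-7.32 ± 0.54). The hemoglobin NSHB2 stood at 0.158, 0.252 and 0.158 in shoot, against 3.29, 2.85 and 2.57 in root (-3.72 ± 0.25). Each was clear of overlap. PDC2 was well expressed in both organs, at 14.8, 17.6 and 17.3 in shoot, against 36.3, 29.8 and 39.2 in root, and was not called (-0.92). In young leaf PDC1 and Adh2 stood at 0.21 ± 0.063 and 0.205 ± 0.0504, under both organs.

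Of 36 sugar genes, 9 were higher (25.0%) and 8 lower (22.2%), near the 24.5% and 19.0% of named genes (median -0.05). Os8N3, a sucrose exporter of the SWEET family, stood at 3.26, 6.19 and 10.1 in shoot, against 0.185, 0.156 and 0.229 in root (5.25 ± 0.35, limma's adjusted p = 1.28e-11), and OsSWEET4 at 29.9, 33.1 and 27.6 in shoot, against 2.51, 2.72 and 2.59 in root (3.65 ± 0.27). OsSWEET14 was lower (-3.52 ± 0.33), as was MST3, a monosaccharide carrier, at 0.239, 0.572 and 0.244 in shoot, against 18.2, 19.6 and 17.5 in root (-5.55 ± 0.54). Among trehalose phosphate phosphatases 3 of 6 were lower and 0 higher, with OsTPP1 at 4.1, 12.8 and 5.64 in shoot, against 47, 50.8 and 80.6 in root (-2.99 ± 0.37). Starch genes went one way, 6 of 14 higher (42.9%) and 0 lower, against 24.5% and 19.0% of named genes (median 0.51). AGPS2, a subunit of the enzyme that commits glucose to starch, stood at 11.6, 8.93 and 11.2 in shoot, against 1.34, 1.3 and 0.912 in root (3.22 ± 0.20), and SS1, a starch synthase, at 2.19, 3.13 and 3.02 in shoot, against 0.452, 0.407 and 0.507 in root (2.88 ± 0.18). The amylase RAmy3D was not called (0.23).

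Defence genes did not move as 1 block. Of 18 pathogenesis-related proteins and chitinases, 5 were higher (27.8%) and 6 lower (33.3%), against 24.5% and 19.0% of named genes (median -0.43). With arrays divided by their medians the counts were 5 and 4. Chib3H-a, a class III chitinase, stood at 0.802, 0.741 and 0.544 in shoot, against 21, 24.5 and 25.8 in root (-5.02 ± 0.38, limma's adjusted p = 1.23e-10), while the class IV gene chia4a stood at 3.34, 9.82 and 5.01 in shoot, against 0.21, 0.263 and 0.196 in root (4.95 ± 0.33). NH4 and NH5, NPR1-like proteins, were higher (4.89 and 4.62), and NH1, the salicylate response regulator of rice, was lower (-1.14), a call lost without shoot replicate 3. The phytoalexin list had 6 lower (33.3%) and 2 higher (11.1%) of 18, against 19.0% and 24.5% of named genes (median -0.60). With the larger constant before the log, 3 were lower. The 2 that were higher, CPS1 at 1.35, 0.902 and 0.764 in shoot, against 0.136, 0.127 and 0.21 in root, and ks1 at 1.97, 2.05 and 2.01 in shoot, against 0.444, 0.518 and 0.495 in root, belong to gibberellin synthesis, and those lower included the momilactone genes CPS4, CYP99A3 and OsMAS (-1.06, -2.12 and -1.48). All 3 momilactone genes were at the low end of the scale in shoot. In WRKY factors 3 of 6 were lower and 0 higher (median -1.97), with OsWRKY76 at 0.39, 0.668 and 0.324 in shoot, against 5.2, 5.78 and 10.2 in root (-3.79 ± 0.55).

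Jasmonate genes were higher in 10 of 34 (29.4%) and lower in 6 (17.6%), against 20.7% and 16.1% of all genes (median 0.41). Among named genes the shares were 24.5% and 19.0%. In synthesis, aoc, allene oxide cyclase, stood at 79.5, 87.8 and 69.4 in shoot, against 18.8, 25.8 and 24.4 in root (1.91 ± 0.23), and AOS1, the step before it, at 23.9, 32.1 and 27.3 in shoot, against 7.0, 9.09 and 13.1 in root (1.76 ± 0.20). AOS4, AOS3 and the reductase genes OPDAR1, OPR4 and OPR5 were lower (-3.03, -1.82, -3.19, -1.87 and -3.83). OPDAR1 differed by -4.11 without shoot replicate 2. JAZ repressors, which jasmonate removes, were higher in 5 of 13 and lower in 0 (1 without shoot replicate 2), led by JAZ8 at 32, 35.6 and 27.2 in shoot, against 1.76, 2.95 and 1.86 in root (3.99 ± 0.33, limma's adjusted p = 4.55e-10). Lipid transfer proteins, which carry cuticle lipids among others, were higher in 4 of 5 (median 4.29). LTP2-B stood at 19, 29.2 and 19.5 in shoot, against 0.12, 0.151 and 0.135 in root (7.58 ± 0.35), and LTP110-A at 46.8, 36.3 and 32.8 in shoot, against 2.35, 2.65 and 1.48 in root (4.29 ± 0.37). KCS20, a fatty acid elongase of wax synthesis and the one gene of its list tested, was higher (4.16 ± 0.21), and of 2 class III peroxidases PRX74 was lower (-2.69 ± 0.39). Of 6 glutathione S-transferases GSTF1 was higher (4.65 ± 0.22) and GST1 lower (-4.54 ± 0.41). Each is 16.7% of the list, against 20.7% and 16.1% of all genes and 24.5% and 19.0% of named genes. There were 2 higher without shoot replicate 3 and 2 lower without shoot replicate 1.

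Auxin genes were higher in 21 and lower in 14 of 60 (median 0.56). All 9 calls among 17 auxin response factors were higher, with ARF12 at 27.9, 24.1 and 24.3 in shoot, against 1.23, 1.33 and 1.37 in root (4.39 ± 0.27, limma's adjusted p = 2.96e-12). AUX/IAA repressors had 6 higher and 7 lower of 25, or 10 higher with arrays divided by their medians, with IAA20 at 0.159, 0.162 and 0.165 in shoot, against 5.68, 5.82 and 5.64 in root (-4.82 ± 0.26) and IAA24 higher (1.98 ± 0.13). Of 5 PIN efflux carriers 3 were lower: OsPIN5 at 0.163, 0.31 and 0.183 in shoot, against 13.9, 9.42 and 17.1 in root (-5.63 ± 0.20), OsPIN4 (-3.76) and OsPIN2, the carrier of the root tip (-1.96). OSPIN10a was higher (2.19). GH3 enzymes, which conjugate auxin, had 4 higher and 3 lower of 8, with GH3.2 at 0.792, 0.981 and 0.572 in shoot, against 34.8, 20.4 and 32.5 in root (-5.12 ± 0.26) and GH3.1 higher (3.93 ± 0.32).

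Cytokinin genes had 5 higher (17.2%) and 6 lower (20.7%) of 29 (median -0.04), and 9 and 5 with arrays divided by their medians. The shares were 20.7% higher and 16.1% lower over all genes, and 24.5% and 19.0% over named genes. LOGL enzymes, which release active cytokinin, showed both ends: LOGL3 stood at 4.96, 5.36 and 4.91 in shoot, against 0.32, 0.492 and 0.443 in root (3.95 ± 0.31, limma's adjusted p = 2.44e-10) and LOGL1 at 0.216, 0.287 and 0.279 in shoot, against 3.27, 3.9 and 2.71 in root (-3.49 ± 0.15). Among gibberellin genes, 2 of 13 were higher (15.4%) and 3 lower (23.1%), also near the shares of all genes (median 0.49). GA20OX2, the semidwarf gene SD1, stood at 2.12, 2.49 and 2.12 in shoot, against 0.374, 0.312 and 0.306 in root (3.07 ± 0.21, limma's adjusted p = 2.85e-11), and SLR1, the DELLA repressor, was higher as well (1.63 ± 0.16). Abscisic acid and dehydration genes were lower in 5 of 31 and higher in 1 (median -0.45), both shares at or under those of all genes, and 2 were higher without root replicate 2. ABA8OX1, which breaks abscisic acid down, stood at 1.16, 3.28 and 1.68 in shoot, against 26.4, 24.2 and 35.5 in root (-3.86 ± 0.37), and its relative ABA8OX2 was higher (2.89 ± 0.55). Root replicate 2 stood apart for 2 dehydration genes, with LEA19 at 0.111, 0.129 and 0.125 in shoot, against 0.515, 6.04 and 0.727 in root and RAB21 at 0.44, 0.341 and 0.247 in shoot, against 0.296, 6.05 and 0.322 in root; RAB21 was not called. Without that array LEA19 differed by -1.83, against -2.98 ± 0.64 with it, and was still lower. Ethylene genes had 2 higher (16.7%) and 1 lower (8.33%) of 12 (median 0.35), both shares under those of all genes. They had 4 and 0 without root replicate 3, and 0 lower without shoot replicate 1 or 3. ACO1, which makes ethylene, led those higher (3.08 ± 0.28). Strigolactone and brassinosteroid genes had 5 higher (27.8%) and 2 lower (11.1%) of 18 (median 0.37), again near the shares of all genes. The brassinosteroid receptor gene BRI1 was higher (2.42). The strigolactone receptor gene D14 was lower (-1.10), a call lost without shoot replicate 3.

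Phytochromes were higher in all 3 cases, phyC at 5.16, 4.36 and 4.09 in shoot, against 0.922, 0.905 and 1.04 in root (2.32 ± 0.19), PhyB by 1.59 ± 0.18 and PHYA by 1.18 ± 0.20. The clock genes of the same list of 11 took both directions. This list had 5 higher (45.5%) and 4 lower (36.4%), against 24.5% and 19.0% of named genes (median 0.72). CCA1, a morning gene in rice as in Arabidopsis, stood at 14.8, 19.3 and 15.1 in shoot, against 2.79, 2.47 and 3.49 in root (2.56 ± 0.19, limma's adjusted p = 6.09e-11). GI, an evening gene, stood at 9.22, 10.5 and 7.88 in shoot, against 21.5, 20.5 and 26.1 in root (-1.16 ± 0.24), and OsPRR1, the rice relative of TOC1 of Arabidopsis, at 1.18, 1.91 and 1.48 in shoot, against 4.95, 4.22 and 6.78 in root (-1.79 ± 0.18). Young leaf stood at 0.704 ± 0.0861 for CCA1, 50.6 ± 4.38 for GI and 19.7 ± 2.71 for OsPRR1, so root lay between shoot and young leaf in these 3 genes. OsPRR37, of the same family as OsPRR1, had another order, at 4.26, 4.71 and 4.68 in shoot, against 0.737, 0.846 and 0.756 in root (2.68 ± 0.18), and at 14.6 ± 1.89 in young leaf, above both. OsPRR73 also had root lowest and young leaf highest and was not called (0.72). The labels used here give no hour of collection, and whether the hour differed was not tested. With arrays divided by their medians GI (-0.81) and OsPRR95 (-0.80) were not called.

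Flowering and MADS-box genes were higher in 10 of 38 (26.3%) and lower in 4 (10.5%), against 20.7% and 16.1% of all genes (median 0.15). Among named genes the shares were 24.5% and 19.0%, so the share higher was near that of named genes. MADS55 and MADS22, relatives of the floral repressor SVP of Arabidopsis, were higher (4.75 ± 0.23 and 2.99 ± 0.22). SPL2 stood at 9.03, 9.74 and 11.8 in shoot, against 0.799, 0.522 and 0.461 in root (4.38 ± 0.29, limma's adjusted p = 1.14e-11), and OsSPL14, which sets tillering and panicle branching, at 1.87, 0.916 and 1.28 in shoot, against 0.197, 0.30 and 0.201 in root (2.77 ± 0.27). MADS27 and MADS25, of the ANR1 class that steers root growth to nitrate in Arabidopsis, were lower: MADS27 stood at 0.13, 0.144 and 0.13 in shoot, against 2.64, 2.06 and 2.43 in root (-3.84 ± 0.25) and MADS25 differed by -3.60 ± 0.40. NAC factors had 1 higher (12.5%) and 3 lower (37.5%) of 8, against 24.5% and 19.0% of named genes (median -0.56). They ran from NAC068 (2.68 ± 0.25) to NAC45 (-3.66 ± 0.35).

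Heat shock genes were lower in 24 of 46 and higher in 4 (median -1.07), or 1 higher without root replicate 3. Small heat shock proteins, which hold unfolding proteins in solution, were lower in 15 of 19. HSP18.1 (chromosome 3) stood at 0.934, 0.84 and 1.32 in shoot, against 46.8, 63.4 and 68.9 in root (-5.81 ± 0.33, limma's adjusted p = 7.15e-13), and HSP17.4 at 0.918, 1.66 and 1.09 in shoot, against 21.3, 25.8 and 29.7 in root (-4.38 ± 0.38). HSP26.7, of the same family, stood at 0.118, 0.248 and 0.192 in shoot, against 4.59, 5.16 and 7.64 in root (-4.68 ± 0.29), and CLPB1, which dissolves aggregates, at 1.56, 1.34 and 1.66 in shoot, against 5.77, 7.08 and 13.9 in root (-2.40 ± 0.27). Every root array was above every shoot array in these 4 genes. The HSP90 genes HSP81-2 and HSP81-3 were bright in both organs and not called (0.39 and -0.23), and HSP26.2 was higher (2.07 ± 0.19). Of 20 heat shock factors 8 were lower and 2 higher, HSF18 (1.05) and HSFB4B (1.20). Without shoot replicate 3 or with the larger constant 5 were lower, and with arrays divided by their medians 3. Of the 2 higher, 1 was left without shoot replicate 1 or root replicate 2, and 0 without root replicate 3. HSF1 stood at 0.398, 0.375 and 0.413 in shoot, against 4.85, 4.38 and 5.3 in root (-3.49 ± 0.17). Young leaf, from the greenhouse like root, stood at 1.1 ± 0.668 for HSP18.1, 2.4 ± 1.62 for HSP17.4 and 0.145 ± 0.0231 for HSP26.7, near shoot, but at 6.51 ± 1.61 for HSF1, above root. These genes do not stand for the list: HSP16.0, also a small heat shock protein, stood at 0.225, 0.287 and 0.244 in shoot, against 2.47, 2.35 and 2.3 in root, and at 2.07 ± 0.427 in young leaf, near root. Over the 46 heat shock genes the young leaf mean was above both organs in 15, between them in 13 and below both in 18. The shares over all genes tested were close to these, at 32.9%, 28.4% and 38.7%.

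Some other stress genes had young leaf on the side of root. DREB1B stood at 0.40, 1.27 and 0.516 in shoot, against 66.6, 69.8 and 70.3 in root (-6.63 ± 0.33, limma's adjusted p = 7.25e-14), and at 41.7 ± 7.21 in young leaf. CML31 stood at 0.654, 0.38 and 0.289 in shoot, against 38.2, 35 and 45.4 in root (-6.40 ± 0.40), and at 23.9 ± 8.5 in young leaf. In both genes the growth chamber shoot was low and the 2 greenhouse organs were high. ABA8OX1, OsTPP1 and OsWRKY24 were also lowest in shoot, with young leaf at 33 ± 6.01, 30.3 ± 5.01 and 21.5 ± 15.4; OsWRKY24 stood at 0.981, 0.817 and 0.58 in shoot, against 6.59, 7.12 and 11.5 in root (-3.32 ± 0.37). These 5 genes were picked for this description after their values were seen, and the part of growth place in them was not tested.

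**Figure D5:**
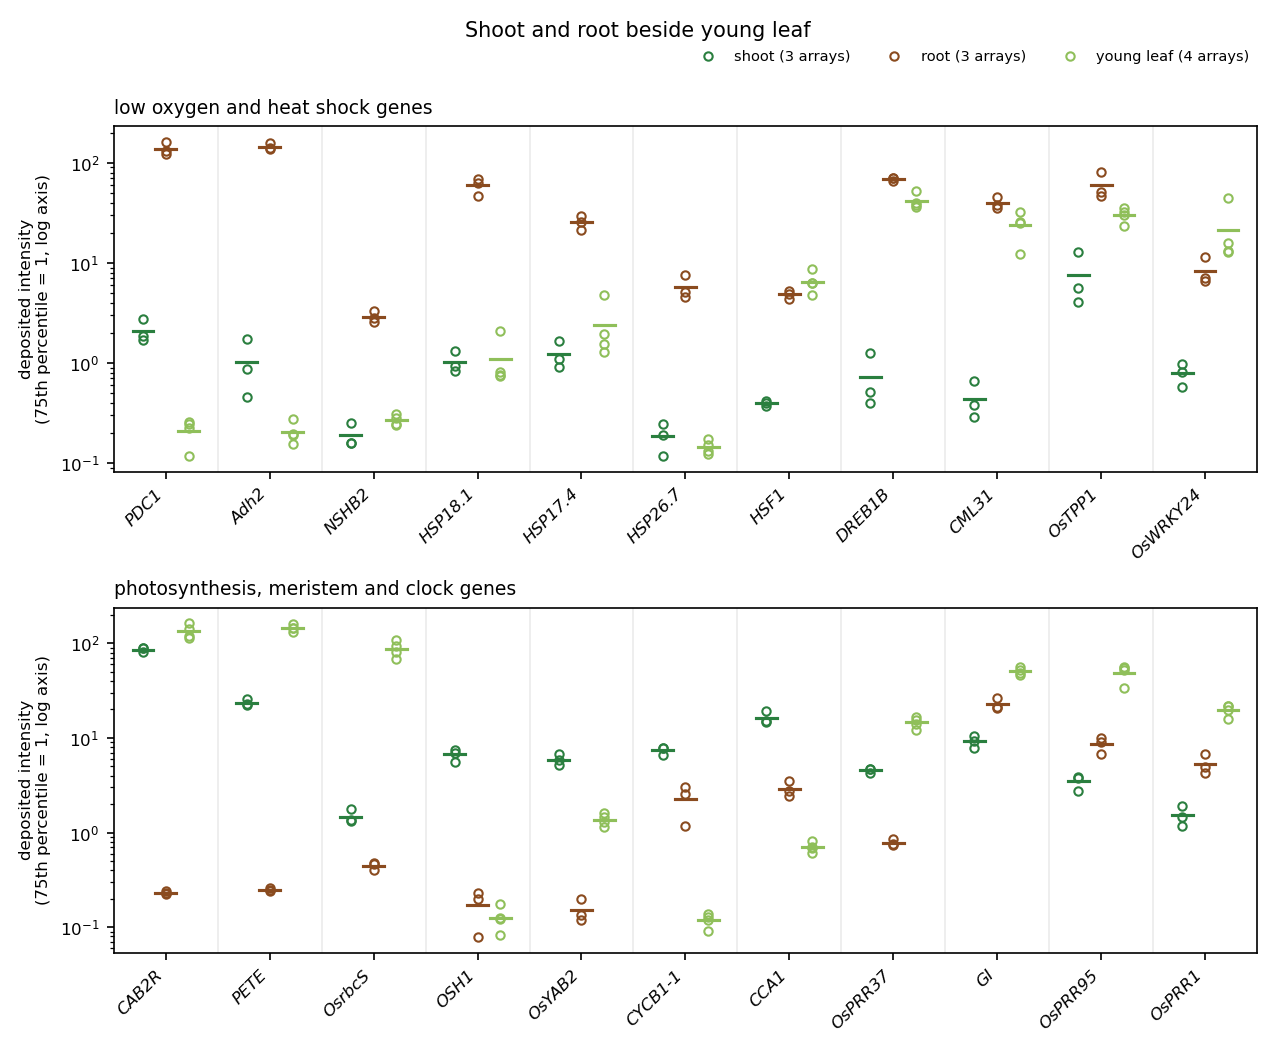
Deposited intensity (75th percentile of each array = 1, log axis) in the 3 shoot arrays, the 3 root arrays and the 4 young leaf arrays for 22 genes; circles are arrays and bars are means. PDC1 and Adh2 are high in root alone, DREB1B and CML31 in root and young leaf, OSH1 in shoot alone, and CCA1 is highest in shoot and lowest in young leaf.

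Several genes rest on probe sets that disagree. Of 2686 genes with several tested probe sets, 27 had probe sets called in opposite directions, and named ones among them were PAL, BIPP2C1, RTUB-2 and HSP18.0. Some genes named above were called by only part of their tested probe sets. Among them, GLK2 was higher on 2 of 4, OsrbcS and ALDP on 2 of 3, and STAR2 lower on 1 of 2. BIPP2C1, a protein phosphatase, stood at 13.3, 11.9 and 15 in shoot, against 0.364, 0.413 and 0.376 in root on its brighter probe set (5.47 ± 0.21), and its second probe set was lower in shoot (-1.05). BURP3, a BURP-domain protein, was higher by 5.45 ± 0.37, and BGLU30, a beta-glucosidase, by 4.87 ± 0.31. BGLU30 stood at 18.3, 4.72 and 5.53 in shoot, against 0.376, 0.333 and 0.317 in root, with shoot replicate 1 far above the other shoot arrays, and differed by 4.26 without it. Calls near the 2-fold limit were lost under single changes of processing: GRF1 and tom1 were lost without shoot replicate 1, shoot replicate 3 or root replicate 3 (GRF1 at 0.90, 0.88 and 0.74, tom1 at -0.91, -0.95 and -0.94), and D14 and NH1 without shoot replicate 3 (-0.93 and -0.89). CPS4 was lost without any 1 of the 6 arrays (-1.18 to -0.86), CESA3 without quantile normalization (0.97) and OsPht1;1 with arrays divided by their medians (-0.90).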

How the data were processed

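Transcript levels were measured on Affymetrix Rice Genome Arrays in 3 shoot and 3 root samples, labelled as biological replicates, within a series of 25 arrays. The deposited values are intensities on a linear scale with the 75th percentile of each array at 1, as the values themselves show; scanning used GCOS 1.3 per the submitters' processing notes, and the background and summary steps are not given in the sources used here. The number of arrays limits the precision.

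The 187 control probe sets were left out. Before log2, each deposited intensity had 0.0274 added, which is 10% of the overall median. Array medians differed by a ratio of 1.61, above the limit of 1.5, and quantile normalization of the log2 values was therefore applied. A probe set was tested where 3 or more arrays held it over their median (37218 probe sets), with limma 3.58.1 (lmFit and eBayes, R 4.3.3) on all 25 arrays, a mean per group and 17 residual degrees of freedom. Calls needed a Benjamini-Hochberg adjusted p under 0.05 and a fold of at least 2. The fold change is on the scale of log2 of the intensity plus the constant, which understates differences of dim genes. The procedure was tested on simulated data.

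Of the 57194 other probe sets, 22436 had 1 gene in the platform annotation, 95 several and 34663 none. All 22436 were found in the RefSeq gene table of assembly ASM3414082v1, which gave symbols and chromosome names; 2458 of 17905 genes have a name. Each gene is represented by the probe set with the highest mean log2 value. Lists were matched by symbol or synonym, and some genes stand in 2 lists. The genes named by rule were the organ markers, the 10 largest differences in each direction without overlap, the 5 largest among those whose mean in both organs lay above 0.264, the median of the 25 array medians, and for each list up to 3 called genes in each direction with the smallest adjusted p and up to 2 uncalled genes with the highest level. A further 73 list members were named after their values were seen. Members and lists were chosen with earlier results of these data known. Alternatives changed the constant, scaling, filter, spread model, arrays, probe sets and call rule. A search of promoters for motifs was not run, since promoter sequence was not used here.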

Additional observations from a re-analysis of the deposited data

Results flagged for a closer look

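Among 29 genes whose young leaf level is given, 3 had 1 of the 4 young leaf arrays far from the others, by the gap to the nearest array as a share of the whole range, which passed Dixon's critical value for 4 arrays. Chance gives about 1 in 20. HSP18.1 stood at 0.737, 0.751 and 0.811 in 3 arrays and 2.10 in the other, a share of 0.946. OsWRKY24 stood at 12.8, 13.0 and 15.7 in 3 arrays and 44.5 in the other, a share of 0.909. OsPht1;1 stood at 12.2, 12.8 and 14 in 3 arrays and 25.4 in the other, a share of 0.864. The young leaf arrays enter no difference between shoot and root, and without the high array OsWRKY24 and OsPht1;1 in young leaf still lay above every root array. Groups of 3 arrays, as for shoot and root, were not examined in this way.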

How the results depend on the processing

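The counts of 5751 probe sets higher and 5022 lower in shoot changed most with the call rule: the adjusted p alone gave 11874 higher and 9617 lower, and a fold of at least 4 gave 1710 and 2192. Leaving out 1 array gave 5616 to 6128 higher and 4895 to 5270 lower. Scaling moved the balance, which turned only without quantile normalization (4444 higher and 6194 lower). With each array divided by its median, 8312 were higher and 3686 lower. The larger constant gave 4643 and 4309, and the other filters, the spread model and the fit on 6 arrays stayed within 1.5 times. Same-numbered shoot and root arrays did not deviate together (correlations of 0.118, -0.068 and -0.092), so the numbers were not taken to pair them. A replicate block gave 5761 higher and 5045 lower, lost no named call and gained PAL (-1.15, limma's adjusted p = 0.00146), called on the 6 arrays without the block too, and PBZ1 (-1.19, limma's adjusted p = 0.00904). Of 253 called named genes, 227 were called under every alternative run on single genes and 0 turned sign. The larger constant lost 10, the missing quantile normalization 9, division by medians 10, and leaving out 1 array 1 to 10. Most of these genes were chosen for large differences, small adjusted p or values already seen. Their stability therefore does not stand for that of all called genes, for which it was not counted. Of 36 lists with at least 3 genes, 3 changed their leading direction under another scaling: potassium to silicon transport, pathogenesis-related proteins and cytokinin. Where shoot or root lay near the low end of the scale, the size of a fold rests on the constant added. The causes of these changes were not tested.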

Other observations

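Over the 12 chromosomes, the share of tested genes higher in shoot lay between 19.3% and 22.5%, and the share lower was smallest on chromosome 12, at 12.7%, against 16.1% over all genes. Of 5751 probe sets higher in shoot 1717 had no gene in the annotation, and of 5022 lower 1856 had none. Among 2686 genes with several tested probe sets, 549 were called the same way by at least 2 of them and 791 by only some. RTUB-2, a tubulin gene, was higher in shoot on its brightest probe set (1.32) and lower on another (-1.19). HSP18.0 was lower on its brightest probe set (-1.41) and higher on another (2.21). PBZ1, a pathogenesis-related protein that was not called, stood at 0.252, 2.01 and 0.328 in shoot, against 1.29, 3.64 and 0.60 in root, with replicate 2 the highest in both organs. PBZ1 was lower without shoot replicate 2 (-2.05) or root replicate 3 (-1.88). For the 166 genes at least 16-fold higher in shoot, root replicate 2 was the highest root array in 67 (40.4%), against 33.7% of all genes.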
